A study of Mus musculus with 10 samples.

Results

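The 10 genes described here encode secreted binding proteins for the insulin-like growth factors (Igfbp2, Igfbp3, Igfbp4, Igfbp5, Igfbp6 and Igfbp7), the receptors Igf1r and Igf2r, and the adaptors Irs1 and Irs2. They were chosen by symbol, as members of these families, and all 10 were listed in both deposited expression tables, which together name 18380 genes. The RNA-seq data came from ASZ001, a mouse basal cell carcinoma (BCC) cell line, so every sample is a culture of 1 cell line. Cells were kept in low-serum medium, 154CF with CaCl2 at 0.05 mM and chelated FBS at 0.2%, and were treated for 24 h. In the first experiment, 3 libraries with 10 µM SB431542, an inhibitor of the TGFß receptor ALK5, were compared with 3 DMSO libraries. The second set 2 libraries with 20 µM T-5224, an AP-1 inhibitor, against 2 DMSO libraries of its own. The study used these treatments to ask which transcripts depend on TGFß and on AP-1 signaling in resistant BCC cells.

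Insulin-like growth factors IGF1 and IGF2 act through IGF1R, a receptor tyrosine kinase that phosphorylates the docking proteins IRS1 and IRS2, and these recruit PI3K and so start AKT signaling. IGF2R, also known as the cation-independent mannose 6-phosphate receptor, takes up IGF2 for degradation and has no kinase domain. The binding proteins hold the growth factors outside the cell and can keep them from the receptor or deliver them to it, and IGFBP7 is a relative that binds them only weakly. In skin, keratinocytes carry IGF1R, and IGF1 is supplied mainly by dermal fibroblasts.

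Expression is given as RPKM, the reads of a gene scaled by its length and by the mapped reads of the library. limma was run on log2(RPKM + 0.5) over all genes whose mean was at least 1 RPKM in the table. A gene is called lower or higher at an adjusted p under 0.05, and down or up where the log2 fold change was also beyond 1, that is, over 2-fold. Log2 fold changes are inhibitor minus DMSO on this scale, which understates the change of low genes. There were 10842 genes tested with SB431542 and 10809 with T-5224. Of the members, 8 and 9 were tested. Igfbp6 lay below the minimum in both experiments and Igfbp4 in the first. Igfbp4 passed the minimum in the second only through its level in the T-5224 libraries, so counts that include it are given as a description.

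The promoters of the 3 members that changed over 2-fold with T-5224, and the only member window with the AP-1 letters, are shown because T-5224 is directed at AP-1. Each runs from 250 bases before to 50 bases after a RefSeq start site of the GRCm38.p6 assembly, 5′ to 3′ on the gene's strand. Capitals mark the AP-1 letters TGACTCA or TGAGTCA, the SMAD core CAGAC or GTCTG, and the TATA box TATAAA or TTTATA, each searched on both strands. The Igfbp5 window is chr1:72874816-72875115 (minus strand), that of Irs1 chr1:82291390-82291689 (minus strand), that of Igfbp4 chr11:99040994-99041293 (plus strand), and the second start of Igfbp2 chr1:72825137-72825436 (plus strand).
Igfbp5: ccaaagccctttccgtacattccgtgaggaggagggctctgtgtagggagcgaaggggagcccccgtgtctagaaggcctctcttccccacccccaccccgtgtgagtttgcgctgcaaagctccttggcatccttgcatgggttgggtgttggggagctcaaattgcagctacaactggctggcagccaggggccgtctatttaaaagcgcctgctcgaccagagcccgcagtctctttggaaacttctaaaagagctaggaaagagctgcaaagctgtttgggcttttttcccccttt
Irs1: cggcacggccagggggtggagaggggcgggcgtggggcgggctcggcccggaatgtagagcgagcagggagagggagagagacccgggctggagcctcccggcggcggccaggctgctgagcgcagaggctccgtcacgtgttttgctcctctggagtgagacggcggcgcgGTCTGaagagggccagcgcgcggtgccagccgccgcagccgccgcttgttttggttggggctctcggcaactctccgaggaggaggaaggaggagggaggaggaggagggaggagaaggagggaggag
Igfbp4: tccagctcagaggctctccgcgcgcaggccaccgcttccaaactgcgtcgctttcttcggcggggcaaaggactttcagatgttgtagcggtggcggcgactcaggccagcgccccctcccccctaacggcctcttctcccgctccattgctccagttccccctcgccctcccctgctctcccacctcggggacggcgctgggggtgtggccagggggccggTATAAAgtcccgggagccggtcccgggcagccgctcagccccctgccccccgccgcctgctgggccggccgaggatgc
Igfbp2, second start: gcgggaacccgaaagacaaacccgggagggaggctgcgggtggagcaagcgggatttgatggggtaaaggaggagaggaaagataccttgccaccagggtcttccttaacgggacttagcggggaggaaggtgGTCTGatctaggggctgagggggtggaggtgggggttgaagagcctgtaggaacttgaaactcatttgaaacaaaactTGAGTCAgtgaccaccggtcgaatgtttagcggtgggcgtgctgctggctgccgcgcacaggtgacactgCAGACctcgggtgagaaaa

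RefSeq gave 11 windows for the 10 members. The AP-1 letters were found in 1 of them, 39 bases before the second start of Igfbp2, and in 5.2% of all 32851 promoters of the same length. The cAMP response element TGACGTCA was in 0 of the 11 (1.79% of all promoters) and the FOXO letters GTAAACA or TGTTTAC in 0 (3.65% of all). A SMAD core stood in 6 windows of 5 members, against 49.6% of all promoters. Igfbp4 held TATAAA 28 bases before its start, and Igfbp6 held TTTATA 148 bases before its start, letters found in 13.6% of all promoters. Igfbp5 held none of the letters searched. Its GC content was 56.3%, that of Irs1 and of Igfbp4 71.3%, and the median over all promoters 52.7%. These matches describe the sequence of the windows and not binding.

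In DMSO-treated cells the binding proteins Igfbp3, Igfbp2 and Igfbp7 were the most abundant members. Igfbp3 was at 400.6 ± 26.2 RPKM (SD, n = 3) in the SB431542 experiment, rank 129 of the 10842 genes tested by mean level in DMSO. Igfbp2 followed at 255 ± 5.80 RPKM, Igfbp7 at 140.3 ± 17.7 RPKM and Igf2r at 35.2 ± 1.56 RPKM. Igfbp5 at 19.3 ± 2.61 RPKM and Igf1r at 17.2 ± 0.228 RPKM overlapped between libraries, as did Irs2 at 7.30 ± 1.06 RPKM and Irs1 at 6.07 ± 0.330 RPKM. Igfbp4 and Igfbp6 were under 0.2 RPKM in every DMSO library of that experiment. In the controls of the T-5224 experiment the order was similar but not the same. There Igfbp3 was at 295.9 ± 3.21 RPKM (SD, n = 2), Igfbp7 at 128 ± 1.78 RPKM, Igfbp2 at 119.9 ± 4.86 RPKM, Igfbp5 at 66.1 ± 10.2 RPKM, Igf2r at 27.6 ± 0.448 RPKM, Igf1r at 18.3 ± 0.687 RPKM, Irs2 at 9.48 ± 0.415 RPKM and Irs1 at 5.23 ± 0.0283 RPKM, and neighbours in this order did not overlap. Igfbp5 and Igfbp2 thus stood at different levels in the DMSO libraries of the 2 tables. The tables were normalized separately and hold different controls, so this difference was not tested.

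**Figure D1:**
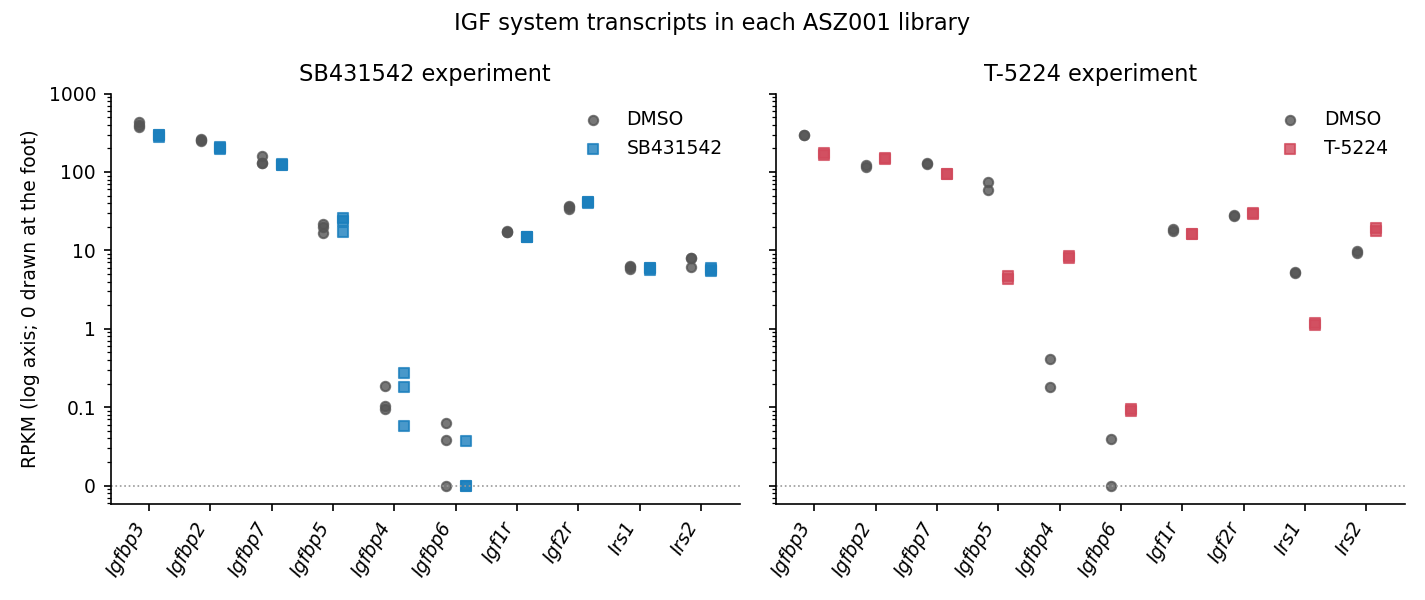
RPKM (log axis, with values of 0 drawn at the foot) of each of the 10 members in each library, with DMSO as grey circles and the inhibitor as coloured squares. Igfbp3, Igfbp2 and Igfbp7 lie near or above 100 RPKM in every library, Igfbp6 lies under 0.1 RPKM, and the groups of Igfbp4, Igfbp5 and Irs1 lie far apart in the T-5224 panel and overlap in the SB431542 panel.

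With SB431542, the most abundant binding proteins Igfbp3 and Igfbp2 and the receptor Igf1r were lower, Igf2r was higher, and no member changed over 2-fold. Of the 8 members tested, 3 were lower, where 10.0% of all genes tested were lower, and 1 was higher, where 10.2% were higher. Across all genes tested, 0.581% were down and 0.231% were up, and 0 members were in either class. The median log2 fold change of the 8 members was −0.19, and that of all genes tested was 0.0082. With T-5224, members passed the test in both directions. Of the 9 members tested, 5 were lower (39.4% of all genes tested) and 3 were higher (40.3%), with 2 down (10.6%) and 1, Igfbp4, up (10.4%). The median was −0.17 for the members and 0.0034 for all genes tested. Since most genes of the table passed the test with T-5224, these counts are not read as a result about the members, and the size of each change is described below.

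**Figure D2:**
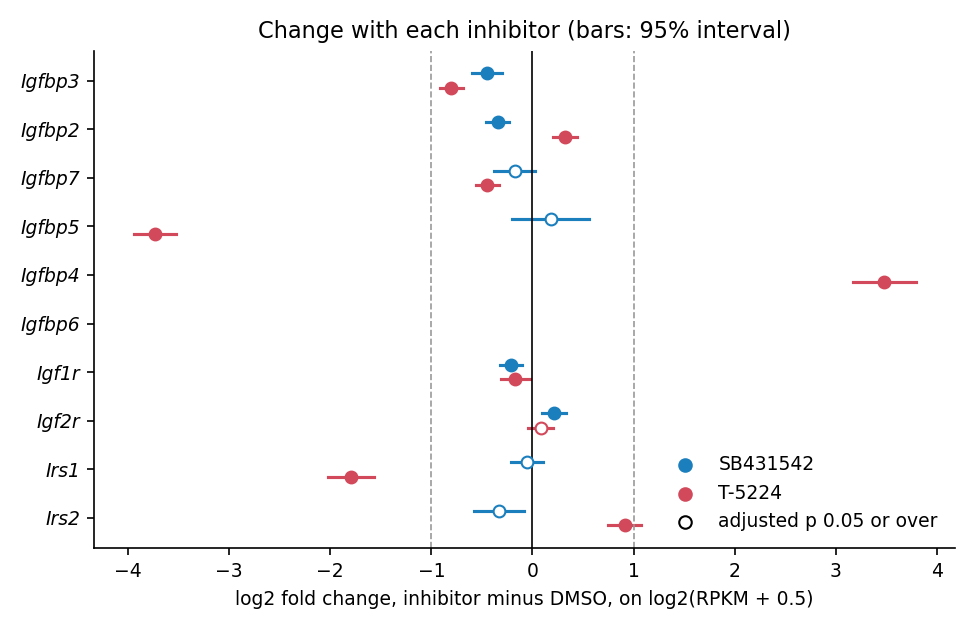
Log2 fold change (inhibitor minus DMSO, on log2(RPKM + 0.5)) of each member tested, with its 95% confidence interval, in blue for SB431542 and red for T-5224. Filled points have an adjusted p under 0.05 and dashed lines mark 2-fold. Igfbp5 and Irs1 lie left of −1 and Igfbp4 right of 1 with T-5224, while all SB431542 points lie between the dashed lines. The interval and fill of Igfbp4 come from the filtered fit, which it entered only through the T-5224 libraries.

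Igfbp5 had the largest fall of the members with T-5224. Its protein binds extracellular matrix as well as IGFs, and its gene lies on mm9 chromosome 1, 72904506 to 72921458, on the minus strand. It was at 58.9 and 73.3 RPKM in DMSO and at 4.67 and 4.27 RPKM with T-5224. The groups were far apart, and the mean fell by 93.2%, which is 14.8-fold. The log2 fold change was −3.74 ± 0.09 (SE, adjusted p = 2.96e-11), the 22nd lowest of the 10809 genes tested. With SB431542, Igfbp5 was at 21.6, 16.5 and 20.0 RPKM in the DMSO libraries and at 26.1, 23.5 and 17 RPKM in the treated ones. These groups overlapped, and the log2 fold change was 0.18 ± 0.16 (SE, 95% CI −0.20 to 0.56, adjusted p = 0.457), an interval that does not reach 2-fold in either direction. The value moved with single libraries, to 0.07 without DMSO replicate 2, 0.06 without SB431542 replicate 1 and 0.36 without SB431542 replicate 3, and it did not pass the test in any of these.

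Igfbp4, whose protein is cleaved by the protease PAPP-A, moved the other way with T-5224. The gene is on chromosome 11, 98902558 to 98913969, plus strand. In the DMSO libraries it was at 0.415 and 0.181 RPKM, which is about 31 and 17 reads, and with T-5224 at 8.51 and 8.09 RPKM, about 1032 and 941 reads. The mean was 27.9-fold higher, with a log2 fold change of 3.48 ± 0.17 (SE, adjusted p = 0.000149). Since the minimum of 1 RPKM was passed only through the treated libraries, this SE and p are those of the fit with no filter on low values. Its lowest and highest log2 values were 2.85 and 4.46 among the pseudocounts and other alternatives tried. In the SB431542 experiment all 6 libraries were between 0.057 and 0.274 RPKM and the groups overlapped.

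Igfbp3 encodes the main IGF carrier of serum and is also made by keratinocytes. The gene lies on chromosome 11, 7106089 to 7113926, minus strand. It was lower with both inhibitors. Its values were 429.8, 392 and 379 RPKM in DMSO against 297.8, 298 and 282.7 RPKM with SB431542 (log2 fold change −0.45 ± 0.06, SE, adjusted p = 0.00405), and the mean fell by 26.9%. In the T-5224 experiment they were 298 and 293.6 RPKM against 174.5 and 164 RPKM (−0.80 ± 0.05, SE, adjusted p = 6.04e-08), and the mean fell by 42.7%. In each experiment every treated library was below every DMSO library, and no alternative tried ended either call.

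Igfbp2, a binding protein with an integrin-binding motif, is the tail-to-tail neighbour of Igfbp5. It lies on chromosome 1, 72871077 to 72899048, plus strand, and 5457 bases separate the ends of the 2 genes. Igfbp2 was at 261, 250.1 and 253 RPKM in DMSO and 199.5, 196 and 206.8 RPKM with SB431542, a log2 fold change of −0.34 ± 0.05 (SE, adjusted p = 0.00445). With T-5224 it was higher, at 152 and 147 RPKM against 123 and 116 RPKM in DMSO (0.32 ± 0.05, SE, adjusted p = 0.000174). The groups did not overlap in either experiment. The neighbouring genes therefore had opposite signs with T-5224, by 0.32 for Igfbp2 and −3.74 for Igfbp5 on the log2 scale.

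Igfbp7 (chromosome 5, 77778265 to 77837070, minus strand) was lower with T-5224, at 95.3 and 92.8 RPKM against 127 and 129.6 RPKM in DMSO (log2 fold change −0.45 ± 0.05, SE, adjusted p = 7.04e-06). With SB431542 it was at 122.5, 125 and 122.7 RPKM against 160.7, 130.6 and 129.5 RPKM, and this difference did not pass the test (−0.18 ± 0.09, SE, adjusted p = 0.190). Without DMSO replicate 1, at 160.7 RPKM, it was −0.07 ± 0.03 (SE, adjusted p = 0.0814). Igfbp6 (chromosome 15, 101974793 to 101979942, plus strand), which prefers IGF2 over IGF1, was at 0 to 0.063 RPKM in the SB431542 experiment. With T-5224 it was at 0.09 and 0.094 RPKM, about 5 reads a library, and at 0 and 0.039 RPKM in DMSO. No fold is given at this depth.

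**Figure D3:**
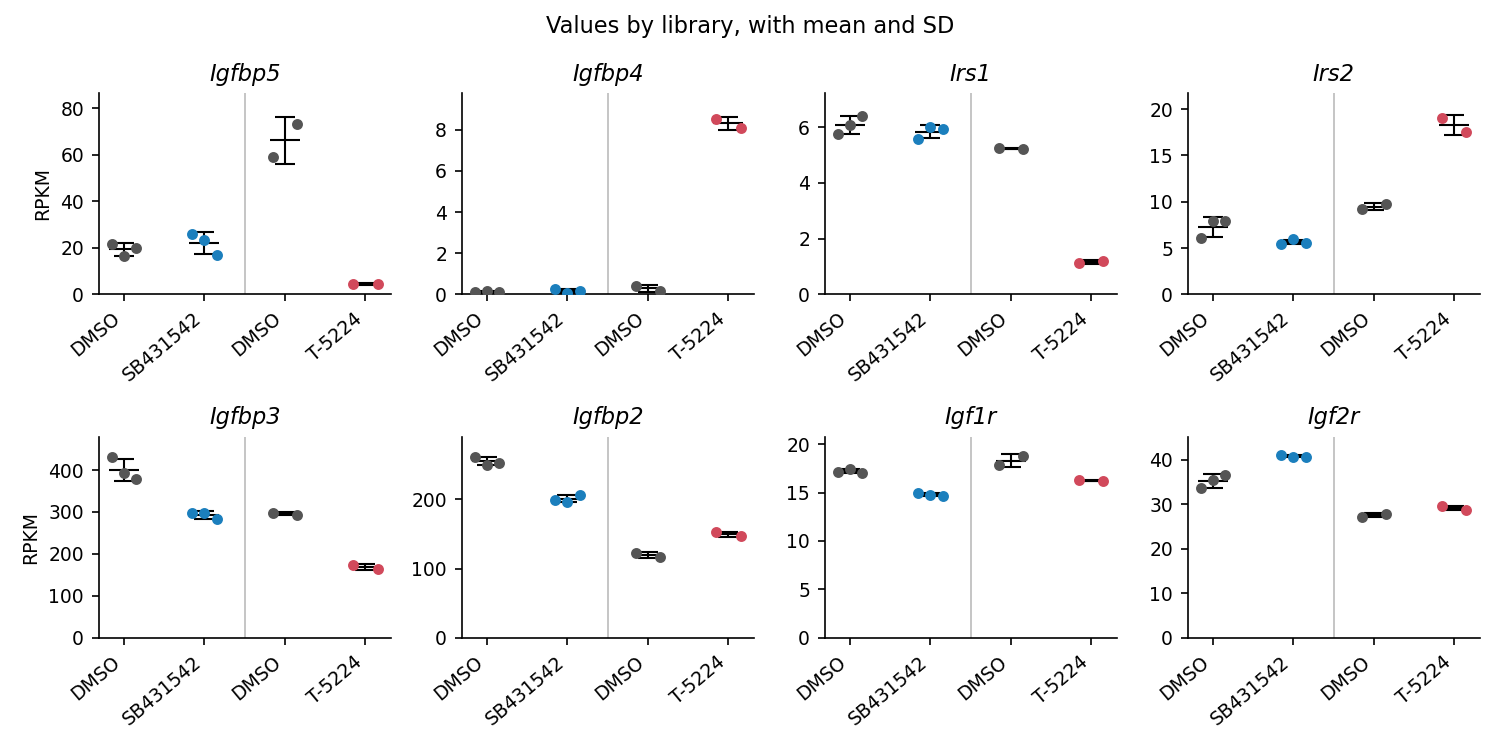
RPKM of 8 members in each library (points), with the mean and SD of each group (bars), on linear axes from 0. The grey line divides the SB431542 experiment (left, n = 3 a group) from the T-5224 experiment (right, n = 2 a group). The T-5224 libraries of Igfbp5, Irs1, Igfbp4 and Irs2 stand clear of their DMSO libraries, while Igf1r and Igf2r differ by much less.

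The summed level of the 6 binding proteins was lower with both inhibitors, and its makeup changed more with T-5224 than with SB431542. The sum was 815 ± 50.6 RPKM in DMSO and 639.8 ± 9.13 RPKM with SB431542 (SD, n = 3), and 610.6 ± 3.75 RPKM in DMSO and 426 ± 13.5 RPKM with T-5224 (SD, n = 2). No test was run on the sums. Igfbp5 made up 10.8 ± 1.60% of the sum in the controls of T-5224 and 1.05 ± 0.0324% with T-5224. Igfbp4 went from 0.0489 ± 0.0274% to 1.95 ± 0.00935%, and Igfbp2 from 19.6 ± 0.917% to 35.1 ± 0.206%. Igfbp3 remained the largest share in every group, at 48.5 ± 0.823% in DMSO and 39.8 ± 0.442% with T-5224. Igfbp7 was at 21.0 ± 0.163% and 22.1 ± 0.276%. In the SB431542 experiment the shares were 49.1 ± 0.601% in DMSO and 45.8 ± 0.765% in treated libraries for Igfbp3, 31.3 ± 1.27% and 31.4 ± 1.26% for Igfbp2, 17.2 ± 1.07% and 19.3 ± 0.305% for Igfbp7, and 2.37 ± 0.250% and 3.46 ± 0.689% for Igfbp5. The groups overlapped there for Igfbp2, but not for Igfbp3, Igfbp7 or Igfbp5.

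**Figure D4:**
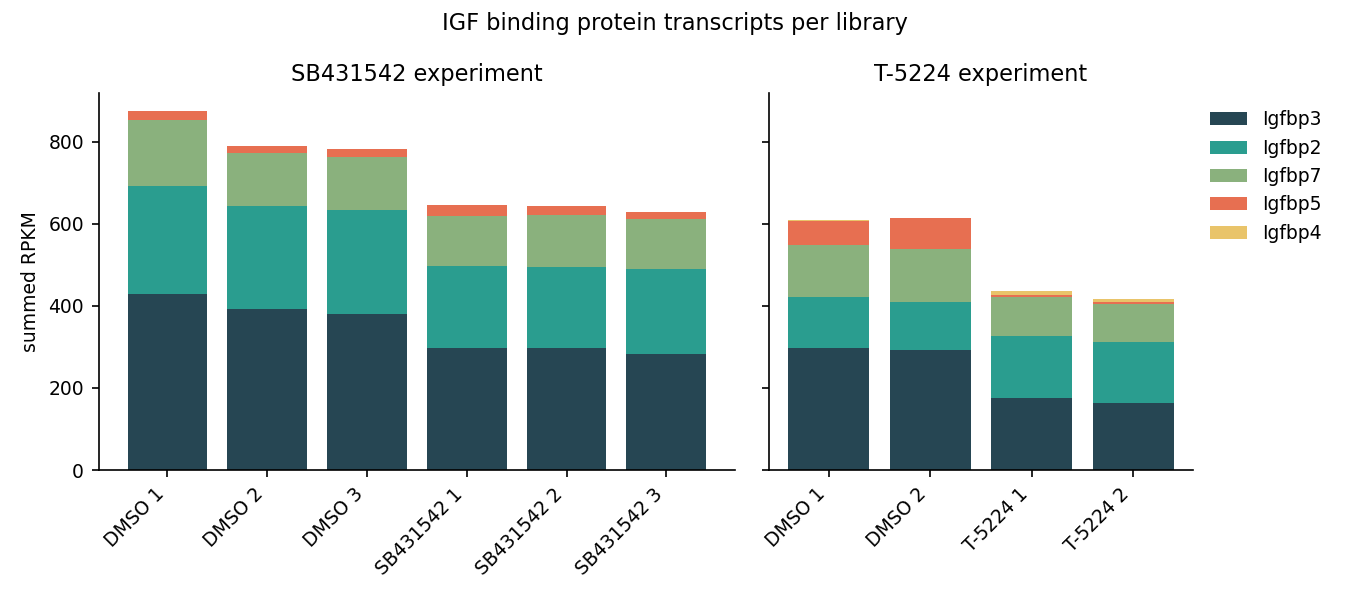
Summed RPKM of the IGF binding proteins in each library, with 1 coloured segment a gene (Igfbp6 is under 0.1 RPKM and not drawn). The treated bars are lower than the DMSO bars in both experiments, and the Igfbp5 segment of the T-5224 DMSO libraries nearly disappears with T-5224.

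The receptors changed little. Igf1r (chromosome 7, 75097713 to 75371484, plus strand) was at 17.1, 17.5 and 17.1 RPKM in DMSO and 15, 14.8 and 14.6 RPKM with SB431542, a log2 fold change of −0.21 ± 0.05 (SE, adjusted p = 0.0230). With T-5224 it was at 16.3 and 16.2 RPKM against 17.8 and 18.8 RPKM (−0.17 ± 0.06, SE, adjusted p = 0.0312). Both calls were close to the threshold. The first was lost when any library but DMSO replicate 1 was left out (adjusted p from 0.0512 to 0.0969), and the second without DMSO replicate 2, T-5224 replicate 1 or T-5224 replicate 2 (adjusted p = 0.141, 0.107 and 0.119). Igf2r (chromosome 17, 12875272 to 12962530, minus strand) was higher with SB431542, at 41.1, 40.8 and 40.6 RPKM against 33.6, 35.4 and 36.7 RPKM (0.21 ± 0.05, SE, adjusted p = 0.0296). That call was lost without DMSO replicate 2 or without any of the SB431542 libraries (adjusted p from 0.0786 to 0.113). With T-5224, Igf2r was at 29.6 and 28.8 RPKM against 27.3 and 27.9 RPKM, which did not pass the test (0.08 ± 0.06, SE, 95% CI −0.05 to 0.21, adjusted p = 0.217), and the sign turned with quantile normalization (−0.0070). Airn, a noncoding RNA, is transcribed antisense to Igf2r over 28354 bases. Airn was at most at 0.396 RPKM in any library, and Igf2r was at least at 27.3 RPKM. The strand setting of the counting is not given in the sources used here, so reads of the pair may not have been told apart.

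The adaptors Irs1 and Irs2 moved in opposite directions with T-5224. Irs1, on chromosome 1, 82229676 to 82287991, minus strand, was at 5.25 and 5.21 RPKM in DMSO and at 1.11 and 1.20 RPKM with T-5224. The mean was 4.53-fold lower, with a log2 fold change of −1.79 ± 0.10 (SE, adjusted p = 2.26e-08). Irs2, on chromosome 8, 10986980 to 11008458, minus strand, was at 9.19 and 9.77 RPKM in DMSO and 19.1 and 17.5 RPKM with T-5224, 1.93-fold higher in the mean (0.91 ± 0.07, SE, adjusted p = 3.68e-07). With SB431542, Irs1 was at 5.74, 6.06 and 6.40 RPKM in DMSO and 5.56, 6.0 and 5.94 RPKM in the treated libraries, which overlapped (−0.05 ± 0.07, SE, 95% CI −0.21 to 0.10, adjusted p = 0.612). Irs2 was at 6.08, 7.94 and 7.89 RPKM in DMSO and 5.50, 5.94 and 5.58 RPKM with SB431542. This difference did not pass the test (−0.33 ± 0.10, SE, adjusted p = 0.0639). It did without DMSO replicate 1 (−0.45 ± 0.06, SE, adjusted p = 0.000863), the library farthest from its group over all genes.

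Other genes of the pathway were taken from a list of 69, of which 64 were listed in each table. The growth factor genes themselves were at or near 0. Igf1 was at most at 0.007 RPKM and Igf2 at most at 0.055 RPKM in any library. Insr, the insulin receptor, was at 6.82 ± 0.231 RPKM in DMSO and 5.81 ± 0.355 RPKM with SB431542 (SD, n = 3), and at 8.09 ± 0.0255 and 8.74 ± 0.226 RPKM in the T-5224 experiment (SD, n = 2), and neither difference passed the test. These 3 genes were named after their values were seen.

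With SB431542, 9 of the 51 pathway genes tested were lower (10.0% of all genes tested) and 6 were higher (10.2%), with 0 over 2-fold and a median log2 fold change of −0.02. The count of higher genes is given as a description, since Inpp4b, described below, entered it only through the treated libraries. The largest fall was that of Htra1, a secreted serine protease that cleaves IGF binding proteins. It went from 272 ± 5.38 to 166.8 ± 2.71 RPKM (SD, n = 3; −0.70 ± 0.05, SE, adjusted p = 0.000214). Pik3r3, a regulatory subunit of PI3K (−0.55), Foxo6, a forkhead factor (−0.37), and Socs2, a suppressor of cytokine signaling (−0.31), also fell. The largest rises were those of Trib3, a pseudokinase that binds AKT (0.61), Inpp4b, a phosphoinositide phosphatase (0.50), Akt1 (0.30), Eif4ebp1, a repressor of translation downstream of mTORC1 (0.27), and Akt2 (0.25). Inpp4b was at 0.742 to 0.958 RPKM in DMSO and 1.36 to 1.499 RPKM with SB431542, so it passed the minimum only through the treated libraries, and with no filter its adjusted p was 0.0237. The adjusted p of the other 7 genes after Htra1 was between 0.00165 and 0.0475. With no filter on low values, Foxo6, Socs2, Trib3 and Eif4ebp1 lost their calls (adjusted p from 0.0671 to 0.0972). Htra1, Pik3r3 and Akt1 kept their calls whichever library was left out. Leaving out any 1 of the 3 SB431542 libraries ended the calls of the other 6 genes (adjusted p from 0.0540 to 0.158), leaving out DMSO replicate 2 those of Foxo6, Socs2, Eif4ebp1 and Akt2, and leaving out DMSO replicate 3 those of Foxo6, Socs2, Trib3 and Eif4ebp1. The counts moved with them. Without 1 of the SB431542 libraries, 3 or 4 pathway genes were lower and 1 was higher, without DMSO replicate 2 there were 4 lower, and without DMSO replicate 1 there were 10 higher.

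With T-5224, 22 of the 52 pathway genes tested were lower (39.4% of all genes tested) and 19 were higher (40.3%). Over 2-fold, 3 were down (10.6%) and 8 up (10.4%), and the median log2 fold change was −0.08. These counts include Stc2, Inpp4b or Pik3r3, which passed the minimum only through the libraries where they were high. They are given as a description. Trib3 rose from 7.98 and 6.31 RPKM in DMSO to 547.6 and 531 RPKM, 75.5-fold in the mean (log2 fold change 6.15 ± 0.09, SE, adjusted p = 4.52e-13), the second highest value of the table. Stc2, which encodes an inhibitor of PAPP-A, rose from 0.069 and 0.184 to 9.37 and 9.34 RPKM (3.98 ± 0.12, SE), and Inpp4b from 0.362 and 0.344 to 5.34 and 5.28 RPKM (2.77 ± 0.11, SE). As with Igfbp4, both passed the minimum only through the T-5224 libraries. The SE given for Stc2 and Inpp4b is that of the filtered fit, and with no filter their adjusted p was 6.22e-05 and 7.18e-05. Eif4ebp1 (2.42 ± 0.05, SE) and Socs2 (1.70 ± 0.09, SE) also rose. Pik3r3 fell from 16.1 and 14.8 RPKM to 0.970 and 0.839 RPKM (−3.50 ± 0.10, SE). It passed the minimum only through the DMSO libraries, and this SE is that of the filtered fit. Its adjusted p was at most 4.785e-05 over the alternatives tried, no filter among them. The other genes on the list for regulatory subunits of PI3K, Pik3r2 (−1.33 ± 0.06, SE) and Pik3r1 (−0.98 ± 0.08, SE), fell too. They were joined by Rps6kb2, an S6 kinase (−1.08 ± 0.08, SE), and by Htra1, from 275.9 and 280.5 to 149 and 144 RPKM (−0.92 ± 0.05, SE). The adjusted p of the genes named here other than Stc2, Inpp4b and Pik3r3 was at most 3.51e-07.

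**Figure D5:**
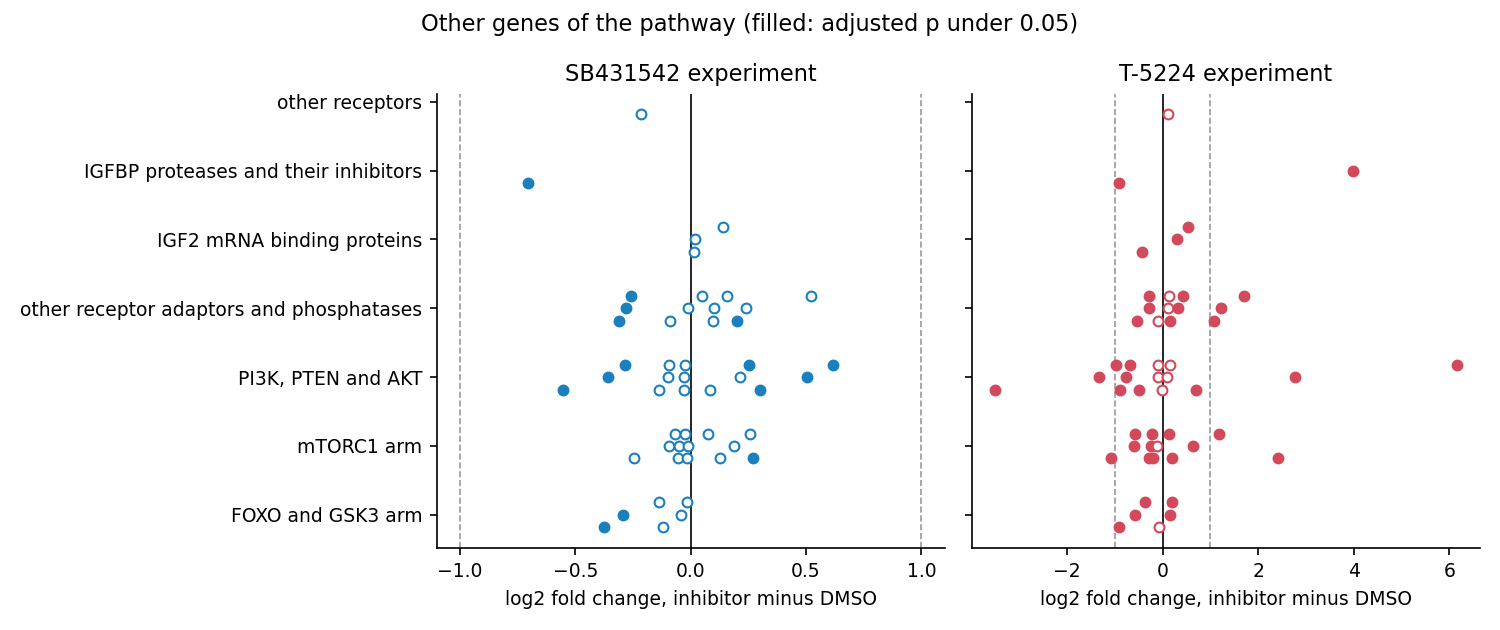
Log2 fold change (inhibitor minus DMSO) of each other pathway gene tested, in rows by role, for SB431542 (left) and T-5224 (right, wider axis). Filled points have an adjusted p under 0.05 and dashed lines mark 2-fold. SB431542 points all lie within 2-fold, and with T-5224 the farthest points are Trib3 and Stc2 on the right and Pik3r3 on the left. Inpp4b, and Stc2 with T-5224, are filled by the filtered fit, which they entered only through the treated libraries. Pik3r3 with T-5224 entered that fit only through the DMSO libraries.

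The genes most like each member over the 10 libraries were found by Pearson's r of log2(RPKM + 0.5), with each table centred on its own DMSO mean, among 10461 genes tested in both tables. The libraries share 4 treatment groups, so r mostly follows the group means and is a description. For Igfbp5 these were Atoh8 (r = 0.998) and Wnk4 (0.997), for Igfbp3 Bcar3 (0.996) and Dcaf8 (0.996), for Igfbp2 Rab32 (0.992) and Katnal1 (0.987), and for Igfbp7 Ubap2l (0.997) and Drosha (0.994). Igf1r was most like Ak1 (0.984) and Klf10 (0.984), and Igf2r most like Akt2 (0.995), also on the pathway list, and Slc20a2 (0.987). Irs1 was most like 4833415N18Rik (0.999) and Galnt18 (0.998), and Irs2 most like Pxdc1 (0.996) and Creb3 (0.993).

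The libraries were estimated to hold between 31.9 and 51.3 M reads, from the RPKM of short genes. All 8 basal keratinocyte markers were above 1 RPKM in every library, and their summed level moved with treatment. It was 9626 to 9788 RPKM in DMSO and 6831 to 7283 RPKM with SB431542, and 12180 to 12865 RPKM in DMSO and 1780 to 1838 RPKM with T-5224. Most of this sum was Krt5 and Krt14. Krt5 was at 5916 to 6087 RPKM in DMSO and 579 to 599 RPKM with T-5224, and Krt14 at 5468 to 5948 and 791 to 826 RPKM. Krt15 was at 50.8 to 55.1 and 1.40 to 1.44 RPKM. The falls were smaller for Trp63, at 73.6 to 76.2 and 48.7 to 50.3 RPKM, and for Cdh1, at 151.8 to 155.5 and 103 to 107.4 RPKM. With T-5224 all 8 markers were below their DMSO range. With SB431542, Krt5, Krt14 and Dsp were below it, Trp63, Itga6, Itgb4 and Cdh1 overlapped it, and Krt15 was above it, at 29.0 to 41.1 RPKM against 22.9 to 26.0 RPKM. Of 8 fibroblast markers, 7 were under 1 RPKM in every library, and Dcn was above it. The fibroblast sum, mostly Dcn, was 2.447 to 2.635 RPKM in DMSO and 3.695 to 4.144 RPKM with SB431542. In the T-5224 experiment it was 2.544 to 2.58 RPKM in DMSO and 2.648 to 2.837 RPKM with T-5224. Of 5 markers each, endothelial, immune and melanocyte lists had 4 under 1 RPKM in every library, and the genes above it were Pecam1, Cd68 and Mitf. The immune sum was 16.7 to 18.6 RPKM in DMSO and 32.7 to 33.2 RPKM with T-5224, nearly all of it Cd68. The endothelial sum, mostly Pecam1, was 11.1 to 12.1 RPKM in DMSO and 4.3 to 4.8 RPKM with T-5224. The melanocyte sum, mostly Mitf, was 8.8 to 9.8 and 6.0 to 6.8 RPKM. In the SB431542 experiment the endothelial sum was 5.3 to 6.8 RPKM in DMSO and 2.8 to 3.0 RPKM in treated libraries. The immune and melanocyte sums overlapped between the groups there. In such bulk RNA, fewer cells of a type and less RNA per cell cannot be told apart, and the part of the keratinocyte markers in the results for the members was not tested. In the SB431542 experiment, DMSO replicate 1 stood apart, with an SD over genes from the other libraries of its group of 0.272 on the log2 scale against 0.123 to 0.190 for the other 5 libraries.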

How the data were processed

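RNA-seq libraries of ASZ001 cells (TruSeq Stranded mRNA, biological replicates) were aligned by the authors with TopHat to mm9, and the deposited RPKM were made with HOMER, in 1 table per experiment (17680 and 16742 rows). Rows named by a date (22 and 23) were left out, which left 17658 and 16719 genes. No count test was run, since the values are RPKM. DMSO replicates of T-5224 carry the numbers of the table's columns, which differ from those of the sample titles.

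Within each table, treated and DMSO libraries were set against each other in limma 3.58.1 (R 4.3.3). The fit used log2(RPKM + 0.5), all genes with a mean of at least 1 RPKM, an empirical Bayes step that follows the mean-variance trend, and p-values adjusted over all these genes by Benjamini-Hochberg. The fit was tested on simulated data with 200 genes changed by 2 on the log2 scale. A call there needed a log2 fold change beyond 1 as well as an adjusted p under 0.05. It recovered 198 of the 200 among 10842 genes for SB431542 and 197 of the 200 among 10809 for T-5224, with 0 false calls in each. The simulation does not cover calls of smaller changes, or a table in which most genes pass the test. Depth was estimated from short genes (under 250 bases) at under 6 reads. The lowest depth with the highest share of values that were whole reads within 0.05 was taken. That share was 99.12% to 100%. The search itself picks a high share, so it is no check on the depth. Reads given for a gene also use its exon length in GENCODE's annotation of NCBIM37 (mm9), which gave all mm9 positions, and are approximate. The precision of each value is set by the spread between libraries.

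The members and lists were chosen with earlier results of these data known. Named genes are all members, the 5 largest rises and falls past an adjusted p of 0.05 among the other pathway genes in each experiment, the 2 genes most like each member tested in both tables, and Airn. A gene that this rule names is not reported here, and Igf1, Igf2 and Insr were named outside it. Alternatives were pseudocounts of 0.1 and 1, no filter or a mean of at least 5 RPKM, median centring, quantile normalization, no trend, an unadjusted p, a replicate block for SB431542, and each library left out in turn. Those for the other pathway genes named were added after seeing the data.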

Additional observations from a re-analysis of the deposited data

How the results depend on the processing

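Over the alternatives tried, the log2 fold changes of Igfbp2 and Igfbp3 with SB431542, and of Igfbp2, Igfbp3, Igfbp4, Igfbp5, Igfbp7, Irs1 and Irs2 with T-5224, kept their sign and their side of the threshold. Igfbp4 entered these fits, except that with no filter, only through the T-5224 libraries, so those are no independent check for it. Irs1 and Igfbp4 could not be tested with T-5224 at a mean of at least 5 RPKM, and this left 1 member down and 0 up. Where 1 of 2 libraries of a group was left out, the lone library is assumed to vary like the others. The count of members higher with SB431542, 1, was 0 with the replicate block and between 0 and 1 with 1 library left out. In the SB431542 experiment, each library's deviations from its own group mean were correlated between DMSO and treated libraries over all genes tested. These r were −0.148, 0.151 and −0.0949 for libraries of the same number, and between −0.171 and 0.196 for those of different numbers. With 3 libraries a group, these values cannot tell whether the numbers pair the libraries. The replicate block gave 3 pathway genes lower, 699 genes lower and 572 higher over the whole table, and an adjusted p of 0.0871 for Igf1r and 0.0919 for Igf2r. It also ended the calls of Foxo6, Socs2 and Akt2 (adjusted p from 0.0680 to 0.0943). Socs2 did not pass with SB431542 under median centring (adjusted p = 0.0593), nor Socs2 and Eif4ebp1 under quantile normalization (0.0816 and 0.0782). With no trend, Trib3 and Eif4ebp1 did not pass (0.0546 and 0.0568). With 1 library left out, pathway genes lower ranged from 3 to 13 and higher from 1 to 10, and genes of the whole table from 433 to 1900 lower and from 300 to 2163 higher, with the highest counts of the whole table without DMSO replicate 1. An unadjusted p gave 10 pathway genes higher, and 1842 genes lower and 2070 higher. Irs2 with SB431542 also passed with median centring (adjusted p = 0.0492). In the whole table, genes up with SB431542 were 38 and 12 with pseudocounts of 0.1 and 1 and 10 at a mean of at least 5 RPKM, where 41 were down, and 742 were down with T-5224. Igf2r turned to −0.0070 with T-5224 under quantile normalization (adjusted p = 0.891). Where no setting is shown as the cause, the cause was not tested. The depth allows no statement on Igfbp6, or on Igfbp4 with SB431542.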
